A study of Mus musculus with 6 samples.

Results

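The regions described here are the promoter windows of the mouse olfactory receptor (Olfr) genes, taken as 1000 bp upstream and 1000 bp downstream of the start that GENCODE M21 places furthest 5′ for each protein-coding gene with a symbol beginning in Olfr, on build GRCm38. There were 1135 such windows among 21938 protein-coding promoter windows. They lay in 50 clusters on 18 chromosomes, and 129 belonged to class I, the run on chromosome 7 that flanks the beta-globin genes, and 1006 to class II. Of these windows, 10 also held the start of a gene of another kind, 8 held the start of another Olfr gene, and 2 members carried the same symbol, Olfr290. Accessibility was read as cut sites, the ends of deduplicated fragments from single-nucleus ATAC-seq, in which a transposase cuts open DNA.

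The 6 libraries came from Krt5-CreER mice with a Rosa26-LSL-YFP reporter on both alleles, so YFP marked cells in which Krt5, a keratin of basal cells, had driven the recombinase, together with their progeny. Every animal, controls included, carried both alleles. YFP+ and propidium iodide-negative cells were sorted from dissected dorsal olfactory epithelium of single animals as horizontal basal cells, its reserve stem cells, in 3 uninjured mice and in 3 mice taken 24 h after an intraperitoneal injection of methimazole, which destroys most cells above the basal layer. In both groups the first animal was aged 8 weeks, the second 6 weeks and the third 6 to 7 weeks. Per-library values below run in the order of these numbers, uninjured before injured. A barcode counted with 2000 or more fragments, and it was called neuron-like when it held 3 or more cut sites over the bodies of Omp, Gng13, Rtp1, Stoml3 and Cnga2, genes of the mature olfactory sensory neuron. No Olfr window overlaps these bodies.

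Each mature sensory neuron expresses a single Olfr allele and keeps the remainder silent in compacted heterochromatin. The chosen allele is opened with the help of enhancers in and between the clusters that are bound by LHX2, EBF proteins and the adaptor LDB1, and Olfr promoters themselves tend to carry EBF-like and homeodomain sites close to the start. Class I receptors resemble those of fish and are mostly expressed in the dorsal zone, whereas class II receptors are spread over all zones. Horizontal basal cells lie upstream of this choice and are not known for Olfr expression.

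The upstream stretches of 5 genes are printed to show what these promoters look like: the window with the most cut sites in neuron-like barcodes (Olfr720), a strongly called one without any of the motifs searched (Olfr744), the called window with an EBF-like match (Olfr348), a class I receptor (Olfr78) and the window with the largest called rise after injury (Olfr432). Each is the 250 bases before the annotated start, read 5′ to 3′ on the gene's strand from GRCm38, with motif matches in capitals.
Olfr720, chr14:14186839-14187088, minus strand, TAATTA: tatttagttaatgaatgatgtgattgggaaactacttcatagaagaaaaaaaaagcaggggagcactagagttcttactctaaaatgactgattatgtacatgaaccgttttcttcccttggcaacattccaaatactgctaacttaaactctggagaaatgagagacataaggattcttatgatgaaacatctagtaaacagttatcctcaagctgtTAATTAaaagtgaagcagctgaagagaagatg
Olfr744, chr14:50614629-50614878, plus strand: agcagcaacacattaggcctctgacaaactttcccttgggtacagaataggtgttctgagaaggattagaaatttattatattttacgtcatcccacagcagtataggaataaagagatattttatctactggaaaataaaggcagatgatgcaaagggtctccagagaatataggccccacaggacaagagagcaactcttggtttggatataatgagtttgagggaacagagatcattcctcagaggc
Olfr348, chr2:36784026-36784275, plus strand, EBF core: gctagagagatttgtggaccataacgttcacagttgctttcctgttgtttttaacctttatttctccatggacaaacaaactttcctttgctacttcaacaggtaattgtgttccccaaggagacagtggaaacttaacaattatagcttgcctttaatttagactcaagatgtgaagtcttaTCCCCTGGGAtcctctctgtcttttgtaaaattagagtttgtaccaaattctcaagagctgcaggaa
Olfr78, chr7:102759472-102759721, minus strand, TATAAA: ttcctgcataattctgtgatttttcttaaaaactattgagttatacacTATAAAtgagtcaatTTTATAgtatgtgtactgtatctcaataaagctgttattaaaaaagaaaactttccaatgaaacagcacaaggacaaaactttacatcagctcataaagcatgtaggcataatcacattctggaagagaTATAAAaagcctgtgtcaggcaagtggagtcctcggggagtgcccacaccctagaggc
Olfr432, chr1:174048955-174049204, plus strand, TATAAA: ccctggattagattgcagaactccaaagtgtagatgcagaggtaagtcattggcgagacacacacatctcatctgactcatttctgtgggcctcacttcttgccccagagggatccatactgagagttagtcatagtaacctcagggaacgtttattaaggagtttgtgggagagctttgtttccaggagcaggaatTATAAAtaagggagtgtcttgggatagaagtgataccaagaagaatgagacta
Counting the base before the start as -1, the match in Olfr720 begins at -32, that in Olfr348 at -67 and that in Olfr432 at -53. Olfr78 has 3 matches, beginning at -202, -187 and -58, and that at -187 is on the opposite strand.

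In all, 3 motifs were searched on both strands and counted separately, without removing overlaps: a palindromic core that EBF proteins bind, TAATTA, a core shared by LHX2 and many other homeodomain proteins, and TATAAA, the TATA box. In the 250 bases before the start, the EBF core stood in 25 of 1135 Olfr genes (2.20%) against 0.893% of all 21938 protein-coding genes. It stood in 3 Olfr genes in the 250 bases before that stretch and in 5 in the 250 bases after the start. The vomeronasal receptor families had it in 0 of 209 genes (Vmn1r) and 1 of 122 genes (Vmn2r) over the same stretch. TAATTA stood in 22.5% of Olfr genes and in 4.99% of all genes, but also in 21.5% of Vmn1r genes and 13.9% of Vmn2r genes. TATAAA stood in 29.7% of Olfr genes, 11.5% of all, 30.6% of Vmn1r and 18.03% of Vmn2r. Of Olfr genes 38.4% held it in the 250 bases before that stretch, 27.1% in the 250 bases after the start and 32.7% to 34.7% in the stretches of that length farther downstream. TAATTA stood in 17.6% of Olfr genes in the 250 bases before and in 9.16% in the 250 bases after the start. Olfr windows are poor in G and C, with a median of 36.4% against 51.2% over all windows, close to the 37.4% of Vmn1r, and the shares of these AT-rich motifs were not corrected for it.

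Of 4476 barcodes, 481 were neuron-like (39, 74 and 82 uninjured, 63, 43 and 180 injured), and 3995 formed the rest. Libraries held 8100227 to 23937953 fragments, and the summed cut sites per library ran from 2937662 to 12567872 in neuron-like barcodes and from 11887658 to 38823784 in the rest. Because the rule asks for a number of cut sites, it favoured deep barcodes: median fragments per library were 23430 to 43790 in neuron-like barcodes and 7810 to 19630 in the rest. Between 15 and 52 neuron-like barcodes per library stood at 3 or 4 marker cut sites, close to the limit. Barcodes with more 10 kb bins covered by over 2 fragments at a point than the library mean allows (Poisson test, adjusted p under 0.01) were called doublets, and these made up 172 of the neuron-like (35.8%) and 429 of the rest (10.7%). That test takes no account of a barcode's depth. The gap between these shares, and results with called doublets left out, therefore cannot be told apart from an effect of depth. In 9 neuron-like and 207 other barcodes under 10% of cut sites lay in promoter windows, and these are called low-signal. In injured replicates 1 and 2 only 4 and 2 neuron-like barcodes were low-signal. Yet they carried 40.6% and 48.1% of the neuron-like cut sites of these libraries. The deepest of them held 555750 and 1746401 fragments. With all barcodes, the neuron-like values of these libraries therefore rest to a large part on a few barcodes. Values below are from all barcodes unless they are said to leave the low-signal ones out. Across libraries 53 barcode sequences occurred more than once, and 26 neuron-like barcodes were among them.

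The neuron-like barcodes were checked on promoter windows of genes outside the rule, which were part of the same edgeR quasi-likelihood fit over 20897 windows that is used for the Olfr windows below. In that fit 6.85% of all windows were called higher and 12.2% lower in neuron-like barcodes at an adjusted p under 0.05. Of 8 genes of odorant transduction 4 were higher: Cnga4, a channel subunit (log2 difference 3.40 ± 0.24 SE), Slc24a4 (0.78), Pde1c (0.64) and Adcy3, the olfactory adenylyl cyclase (0.60). Ano2, the olfactory chloride channel, was lower (-0.62). Gnal, the olfactory G protein, differed by -0.10 (adjusted p = 0.835). Rtp2, which carries receptors to the membrane, was higher by 2.97, and 7 of 13 genes tied to receptor choice were higher, Ebf1 by 1.44, Ebf2 by 1.17 and Lhx2 by 0.91 among them, while 2, Lbr and Atf5, were lower. Library factors from 10 kb bins moved the median of all windows from -0.03 to -0.52, and called 2.17% of all windows higher and 20.2% lower. That shift was larger than the 0.35 of Ldb1, the LHX2 adaptor. Differences of 0.60 to 0.91, such as those of Adcy3, Pde1c, Slc24a4 and Lhx2, exceeded the shift by less than its own size. Which calls of listed genes hold with those factors is not given here. Markers of younger stages were higher too, in 3 of 5 genes for immature neurons (Stmn2 by 2.60) and 3 of 4 for neuronal precursors (Neurod1 by 2.19). Of 3 microvillar cell markers 1, Ascl3, was higher as well (0.76, adjusted p = 0.000972). Of 5 horizontal basal markers 4 were lower, yet their summed level was still 34.8 to 108.2 CPM (cut sites per 1000000 in the same barcodes) in neuron-like barcodes against 114.4 to 189.4 in the rest. Krt5 kept 13.4 ± 4.98 CPM (SD, n = 6) against 33.1 ± 7.79. How much of the neuron-like signal came from doublets of neurons with basal cells was not tested.

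Olfr starts carried a sharp peak of cut sites in neuron-like barcodes and a low one in the rest. With low-signal barcodes left out, the mean density of cut sites over the 1135 starts reached 7.20 times the level found 3 to 5 kb away in the bin from -200 to -101 bp, 7.65 times from -100 to -1 and 4.58 times in the first 100 bp of the gene. In the rest the same bins reached 1.62, 1.80 and 1.48 times. With all barcodes the bin next to the start reached 6.61 times in neuron-like barcodes and 1.72 times in the rest. Taken over the 250 bp on either side of the start, and again without low-signal barcodes, the density ratio in neuron-like barcodes was 8.06, 5.19 and 5.40 in the 3 uninjured libraries and 3.89, 3.10 and 5.11 in the 3 injured ones. In the rest it was 1.99, 1.40 and 1.27, and then 1.44, 1.23 and 1.59. The lowest neuron-like library then lay above the highest value of the rest. With all barcodes the neuron-like ratio was 8.06, 5.07 and 5.40 (uninjured) and 1.66, 1.36 and 5.04 (injured), and that of the rest ran from 1.21 to 1.95. It was the higher within each of the 6 libraries, but those of injured replicates 1 and 2 lay inside the range of the rest. The peak sat just upstream of the annotated start. Both parts of each ratio come from the same barcodes.

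**Figure D1:**
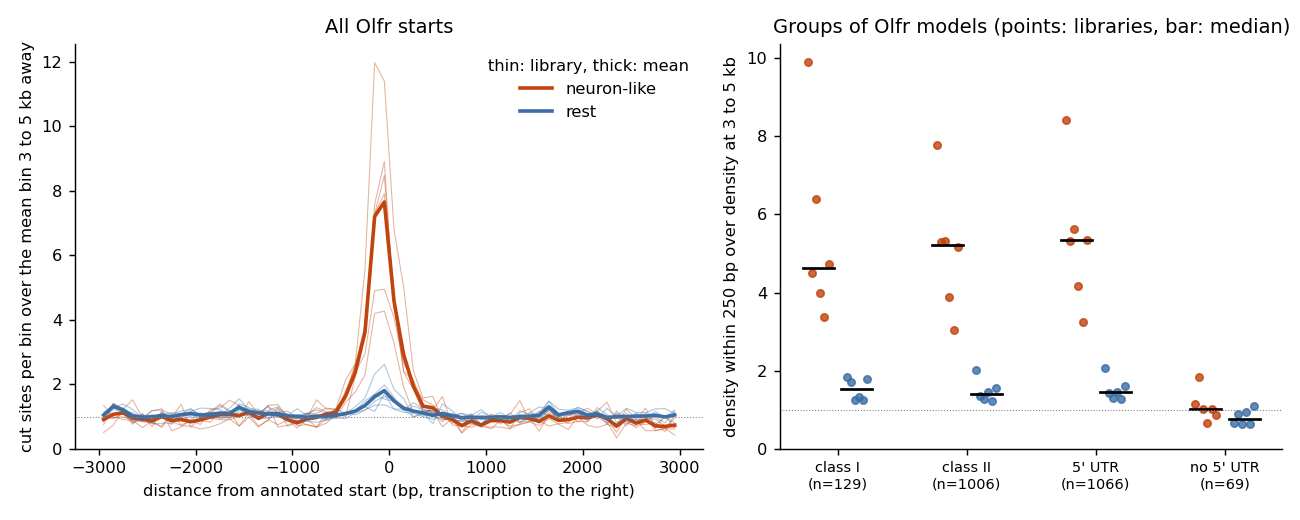
Left, cut sites per 100 bp bin around 1135 Olfr starts, divided by the mean bin 3 to 5 kb away, by distance from the start in bp, for neuron-like barcodes and the rest, with low-signal barcodes left out. Thin lines are the 6 libraries and thick lines their mean, which peaks at 7.65 in neuron-like barcodes and 1.80 in the rest. Right, the density within 250 bp of the start over that at 3 to 5 kb for groups of gene models, 1 point a library and a bar at the median. Models without a 5′ UTR have a neuron-like median of 1.02 (0.649 to 1.83), from 60 cut sites within 250 bp.

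The peak differed with the annotation of the gene model, read without low-signal barcodes unless stated. For 1066 models with an annotated 5′ UTR, whose start lies upstream of the coding sequence, the density ratio in neuron-like barcodes had a median of 5.34 over libraries (3.23 to 8.41). For the 69 models that begin at the start codon it was 1.02 (0.649 to 1.83), close to the 0.775 (0.623 to 1.10) of the rest. These 69 had 60 neuron-like cut sites within 250 bp of the start, against 5477 for the 1066. A median of 82.65% of 31-base words in their windows were unique in the genome, against 95.5%, and the part of this was not tested. The ranges of the neuron-like libraries did not overlap between these kinds of model. With all barcodes they did, at 1.38 to 8.41 and 0.853 to 1.83. Class I and class II had overlapping ranges, with medians of 4.62 (3.38 to 9.90) and 5.23 (3.05 to 7.77). Windows with the EBF core upstream had a median of 7.41 (4.19 to 17.1) from 25 windows and 148 cut sites, and those with TAATTA 5.16 (3.03 to 9.04), both overlapping the range of all windows. Presence or absence of TATAAA gave 4.62 (2.69 to 8.99) and 5.23 (3.27 to 7.80). The 1087 windows not called higher below still had a median of 3.95 (2.54 to 6.18) in neuron-like barcodes against 1.40 (1.25 to 1.89) in the rest, a set described with no test because the calls used the same cut sites. With all barcodes these were 3.88 (1.28 to 6.18) and 1.33 (1.21 to 1.85), and the ranges overlapped.

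Summed over all members, Olfr windows of neuron-like barcodes reached 370.7, 209.3 and 302.1 CPM in the uninjured libraries, and 566.8, 727.9 and 233.2 CPM in the injured ones. In the rest the sums were 138.0, 178.3 and 94.5, and then 162.2, 150.5 and 150.8. The neuron-like sum was the higher in all 6 libraries, and it stood apart in injured replicates 1 and 2. Those are the libraries whose low-signal barcodes held so many cut sites: with them left out the neuron-like sums became 370.7, 205.5, 302.1, 241.0, 236.2 and 231.7 and those of the rest 134.6, 112.5, 90.3, 145.1, 131.6 and 120.9. The neuron-like sum stayed higher in 6 of 6 libraries, by 1.66 to 3.35 times. With depth made more alike by keeping barcodes of 20000 or more fragments, and low-signal barcodes still left out, the mean was 274.4 ± 61.4 (SD, n = 6) in neuron-like barcodes and 126.4 ± 27.7 in the rest. With low-signal barcodes kept and each barcode thinned to 4000 cut sites before the rule was applied, only 39 barcodes stayed neuron-like, with 257 cut sites in Olfr windows, and their mean of 179.4 ± 140.5 was below the 205.8 ± 65.1 of the barcodes left. Their ratio to the flanking sequence described next kept its order, at 1.60 ± 0.83 against 1.22 ± 0.14 (SD, n = 6), and both gaps were smaller than the SD of the neuron-like libraries.

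Flanking sequence, 3 to 13 kb from each Olfr start and clear of other starts by 2 kb, gave the background inside the clusters. Per base, Olfr windows in neuron-like barcodes held 2.62, 1.87 and 1.95 times the flank (uninjured) and 1.24, 1.19 and 1.95 times (injured). In the rest the ratios were 1.09, 1.03 and 0.835, and then 1.02, 0.992 and 1.07. Without low-signal barcodes injured replicates 1 and 2 moved to 1.71 and 1.54, and the 6 neuron-like ratios then ran from 1.54 to 2.62 against 0.819 to 1.09. In the rest the 129 class I windows held 1.202 to 1.57 times their own flank, whereas the 1006 class II windows held 0.794 to 1.05 times theirs. Without low-signal barcodes these were 1.19 to 1.55 and 0.780 to 1.03.

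**Figure D2:**
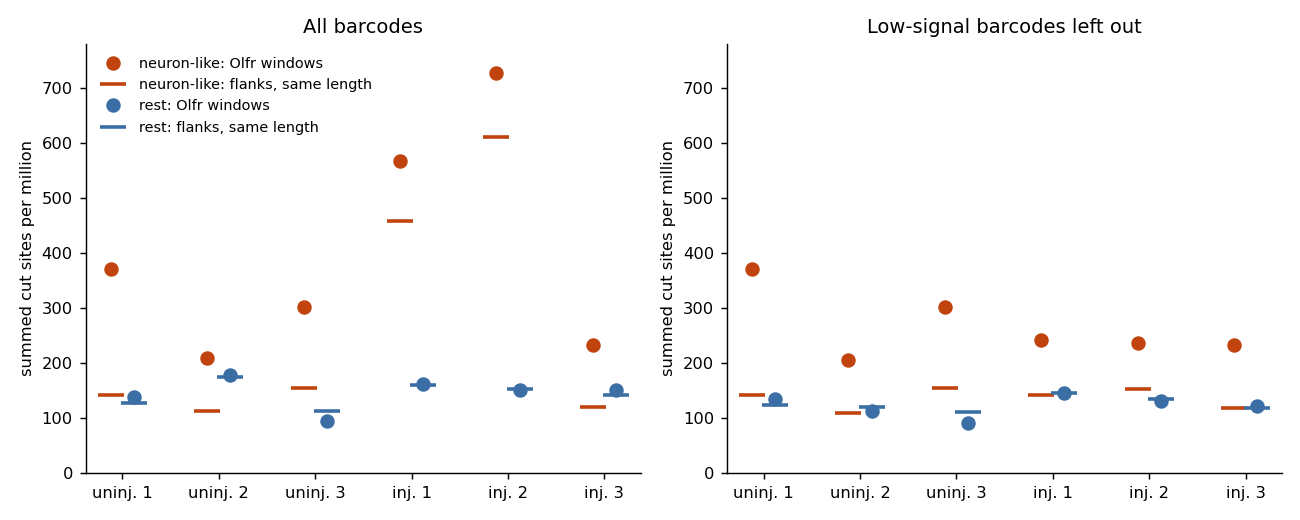
Levels in CPM summed over 1135 Olfr windows (points) and over their flanks scaled to the same length (bars), by library, for neuron-like barcodes and the rest. Left, all barcodes, where the neuron-like flanks of injured replicates 1 and 2 rise with the windows; right, low-signal barcodes left out, where neuron-like windows run from 205.5 to 370.7 and the rest from 90.3 to 145.1.

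Other chemosensory families were read in the same way. Without low-signal barcodes the ratio of neuron-like to rest was 1.66 to 3.35 for Olfr, 1.58 to 2.94 for the 122 Vmn2r windows, 1.08 to 1.91 for the 15 Taar windows and 0.847 to 1.28 for the 209 Vmn1r windows. Over all 21938 windows it was 0.865 to 1.02. With all barcodes these ratios were 1.17 to 4.84 (Olfr), 1.37 to 4.71 (Vmn2r), 1.36 to 3.66 (Taar), 0.787 to 1.89 (Vmn1r) and 0.529 to 1.05 (all). The ranges of Vmn2r and of Taar overlapped that of Olfr in both, so the summed level did not set Olfr apart from those families. That of Vmn1r overlapped it with all barcodes only. A median of 73.2% (Taar), 74.5% (Vmn2r) and 74.7% (Vmn1r) of 31-base words in a window were unique in the genome, against 95.0% for Olfr. Within Olfr, without low-signal barcodes, the ratio was 1.19 to 2.63 for class I, 1.72 to 3.51 for class II and 0.576 to 1.96 for models without a 5′ UTR. With all barcodes class I ran from 0.773 to 4.19, higher in 5 of 6 libraries, class II from 1.25 to 4.94, and models without a 5′ UTR from 0.351 to 5.90. In the largest cluster, 227 genes on chromosome 2, it was 0.915 to 3.12 (0.671 to 9.42 with all barcodes), and in a cluster of 30 genes on chromosome 11 it was 2.60 to 5.55 (2.195 to 6.11).

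Single windows were thinly covered. A cut site from some neuron-like barcode fell in 1114 of the 1135 windows and from the rest in 1125. The median window was cut in 4 neuron-like barcodes, 637 windows in 1 to 4, 374 in 5 to 9, 82 in 10 to 19 and 21 in 20 or more. A window was tested with 10 or more cut sites in all, which 1087 passed, and the library was a block in the fit. Of these 1087, 48 were called higher in neuron-like barcodes and 1 lower by edgeR's quasi-likelihood test. The higher share of 4.42% was below the 6.85% over all windows, and the single lower call compared with 12.2%. The order of the higher shares turned under other settings. It was 3.50% of Olfr against 2.17% of all windows with factors from 10 kb bins, 3.68% against 3.18% with library totals, 12.2% against 10.2% in DESeq2 and 7.36% against 5.84% with no replicate block, and 6.54% against 6.53% with windows of 500 bp either side. Without low-signal barcodes it was 5.26% against 7.68%, and 5.93% against 4.08% when 10 kb bins also set the factors. No order of these shares is read here. Called or not, 83.6% of tested Olfr windows had a log2 difference above 0 against 47.0% of all, with a median of 1.33 against -0.03. Other chemosensory families leaned the same way: 12 of 15 Taar windows were above 0 (median 1.07), 63 of 83 Vmn2r (1.06) and 107 of 145 Vmn1r (0.75). Without low-signal barcodes these family medians were 0.62, -0.23 and -0.24. The Olfr median with all barcodes stayed at 1.33 when members with no cut site on 1 side were set to the bound that 3 counts allow. With factors from 10 kb bins it was 0.90 against -0.52 over all windows, with 38 Olfr windows higher and 2 lower.

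The number of calls moved with single libraries. It was 19 without uninjured replicate 3 (1.79% of tested Olfr windows higher, against 4.85% of all windows), 24 without injured replicate 1 (2.45% against 6.74%), 28 without injured replicate 3 (2.70% against 4.98%) and 29 without uninjured replicate 1 (2.72% against 5.71%). It was 38 without injured replicate 2 (3.73% against 7.10%) and 55 without uninjured replicate 2 (5.23% against 6.35%). DESeq2 called 133 higher and 1 lower, where it called 10.2% of all windows higher and 9.58% lower.

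Without the low-signal barcodes 894 Olfr windows were tested, with 47 called higher and 1 lower, where 7.68% of all windows were higher and 11.6% lower. Of the 49 first calls 40 were shared. The median Olfr difference fell to 0.67 (all windows -0.05), and 65.3% of Olfr windows were above 0 against 44.1%. With called doublets left out 37 windows were higher and 0 lower of 751 tested, and 27 of the first calls were shared, where 7.33% of all windows were higher and 12.5% lower. The median Olfr difference was then 0.50 (all windows -0.12), with 442 of 751 above 0. When the rule was applied after thinning, with 39 neuron-like barcodes, edgeR called 0 Olfr windows (0.239% of all windows higher and 2.81% lower). At an unadjusted p under 0.05 in edgeR, 1 Olfr window was higher and 2 were lower. Of all 20897 windows, 247 were higher and 3229 lower at that unadjusted threshold. That rule had no DESeq2 fit. Of the 1087 windows 989 had no neuron-like cut site under that rule, so single windows could not be read.

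**Figure D3:**
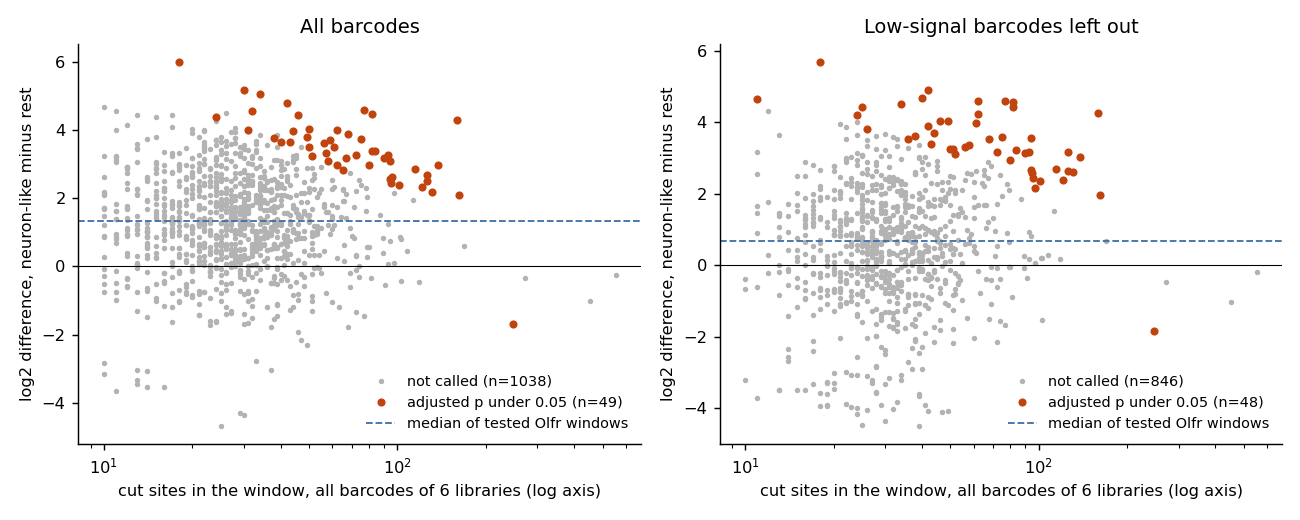
Log2 difference between neuron-like barcodes and the rest against the number of cut sites in the window (log axis), 1 point for each tested Olfr window, with all barcodes (left) and low-signal barcodes left out (right). Windows called at an adjusted p under 0.05 are coloured, and the dashed line is the median of tested Olfr windows, 1.33 and 0.67. Calls lie mostly among windows with more cut sites.

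The called windows were scattered. The 48 higher ones lay in 24 clusters on 12 chromosomes, with 45 in class II and 3 in class I, and 23 were higher in 6 of 6 libraries. So were 19 of the 1039 tested windows not called higher, and the calls came from the same libraries. The 48 were cut in a median of 16 neuron-like barcodes (6 to 43), and held 18 to 132 neuron-like cut sites. Their median GC was 38.2% against 36.5% over tested Olfr windows, and 96.4% of their 31-base words were unique in the genome against 95.2%. Of the 62 tested models without a 5′ UTR none was called by edgeR, and DESeq2 called 2 higher. At an unadjusted p under 0.05 in edgeR, 2 of the 62 were higher and 0 lower. Of all 20897 windows, 2198 were higher and 3712 lower at that unadjusted threshold. The share called higher by edgeR was 4.68% for models with a 5′ UTR and 6.85% for all windows, and DESeq2 called 10.2% of all windows higher. TAATTA stood upstream in 9 of the 48 (18.8%) and TATAAA in 9 (18.8%), against 22.5% and 29.7% of the tested, and the EBF core in 1, Olfr348.

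In clusters of 20 or more genes the calls ran from 0 to 5. The cluster of 95 genes with starts at chr9:37716250-40180920 had 5 of 92 tested, or 3 without low-signal barcodes, and the largest, with 227 genes on chromosome 2, had 2 of 215. The 37 genes with starts at chr9:18763996-20336094 had 3 of 35, and 0 without low-signal barcodes. A cluster of 25 genes on chromosome 16 had 0 of 24 tested. Beside the 6.85% called higher over all windows, counts this small set no cluster apart.

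Olfr720, a class II gene at chr14:14185838-14187838, had the smallest p. Its start lies 65854 bp from the nearest start of a protein-coding gene outside the Olfr family, that of Psmd6. The Olfr720 window held 20, 16 and 26 cut sites in neuron-like barcodes of the uninjured libraries and 12, 12 and 46 of the injured ones. The rest, with several times as many cut sites in all, held 0, 2 and 4, and then 11, 2 and 8. The neuron-like level was the higher in each library, at 3.31 ± 1.94 CPM (SD, n = 6) against 0.166 ± 0.129. The log2 difference was 4.29 ± 0.63 SE (edgeR adjusted p = 6.59e-10), and without low-signal barcodes, when injured replicate 1 held 4 cut sites, it was 4.25 (adjusted p = 4.47e-10). It was called under all 28 alternatives other than the thinned rule. The cut sites came from 43 neuron-like barcodes, at most 8 in one, and 80.65% (uninjured) and 87.1% (injured) lay within 250 bp of the start, the stretch around the TAATTA printed above. Only 73.6% of its 31-base words are unique, the lowest among the first 10; its value is uncertain where similar sequence shares reads.

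Olfr744, at chr14:50613879-50615879, had neuron-like cut sites of 2, 14 and 20 (uninjured) and 6, 11 and 18 (injured), against 2, 3 and 4 and then 2, 0 and 0 in the rest. All 6 libraries were higher in neuron-like barcodes, by a log2 difference of 4.47 ± 1.01 (edgeR adjusted p = 0.000132), from 28 barcodes. Olfr418 on chromosome 1 gave 6, 4 and 13, and 8, 14 and 20, against 0, 2 and 0, and 5, 0 and 5. It too was higher in 6 of 6 libraries, by 4.57 ± 1.06 (adjusted p = 0.000229). Without low-signal barcodes the edgeR differences were 4.56 for Olfr744 (adjusted p = 4.84e-06) and 4.58 for Olfr418 (adjusted p = 2.65e-05).

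Another 7 class II windows had differences of similar size from fewer cut sites. The rest held 0 to 8 cut sites in each, fewer than a window needed to be tested. All 7 therefore passed the filter only through their neuron-like cut sites, the side on which they were high. How far this raised their differences and lowered their p-values was not tested. Olfr73, whose receptor responds to eugenol, had 2, 0 and 4 cut sites in neuron-like barcodes of uninjured and 6, 4 and 2 of injured replicates, from 6 barcodes, and none in any library of the rest. Against a floor of 3 counts over the rest its pooled level was at least 19.2-fold higher (edgeR adjusted p = 0.00554). Olfr1318 had 2, 8 and 0, and 2, 8 and 12, against 2 cut sites in all in the rest, and its log2 difference was 5.05 (adjusted p = 0.00812). Olfr411 had 12, 0 and 6, and 2, 6 and 12, against 4 in the rest (4.78, adjusted p = 0.00696). Each of these 3 was at 0 in 1 uninjured neuron-like library and was higher in 5 of 6. Olfr57 and Olfr462 were higher by 4.43 and 4.39 (adjusted p = 0.0168 and 0.0278) from 13 and 7 barcodes. Without low-signal barcodes these 5 calls held in edgeR, with adjusted p of 0.00557 for Olfr73, 0.0150 for Olfr1318, 0.00668 for Olfr411, 0.0122 for Olfr57 and 0.0296 for Olfr462, but injured replicate 2 then held 0 cut sites in place of 4 at Olfr73, 0 in place of 8 at Olfr1318 and 2 in place of 6 at Olfr411, where injured replicate 1 fell to 0 as well. Leaving out 1 library at a time, Olfr720, Olfr744, Olfr418, Olfr73 and Olfr1318 passed in all 6 fits. Olfr411 missed without uninjured replicate 1 (adjusted p = 0.0553), and Olfr57 and Olfr462 passed in 2 of 6 fits each.

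The calls of the remaining pair, Olfr844 and Olfr348, were lost without the low-signal barcodes. Olfr844 passed in all 6 fits that leave out a library. It had 0, 2 and 4, and 11, 5 and 4 neuron-like cut sites against 4 in the rest, with a log2 difference of 5.17 (edgeR adjusted p = 0.00924). Without low-signal barcodes injured replicates 1 and 2 dropped to 2 and 0 cut sites and the difference was 3.67 (adjusted p = 0.0851). Olfr348, which carries the EBF-like match shown above, had 6, 0 and 2, and 8, 3 and 8, against 5 in the rest. Its difference of 4.56 (adjusted p = 0.0230) became 3.59 (adjusted p = 0.0694), and it passed in 3 of the 6 fits that leave out a library, missing without replicate 1 of either group and without the third injured one.

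**Figure D4:**
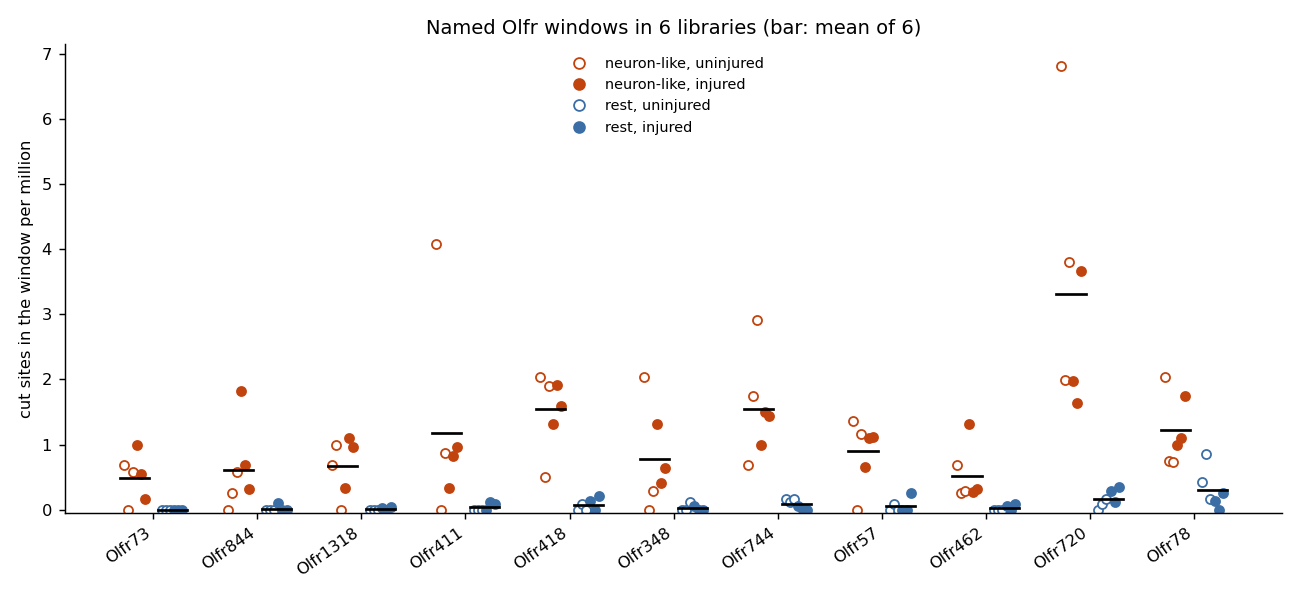
Levels in CPM of 11 Olfr windows, 1 point for each library (open, uninjured; filled, injured) in neuron-like barcodes and in the rest, with a bar at the mean of 6. Olfr73 is at 0 in every library of the rest, Olfr720 has the highest neuron-like mean (3.31), and several windows are at 0 in 1 neuron-like library.

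The windows that were called most often over the 28 alternatives other than the thinned rule are given next, chosen after their values were seen. Olfr1404 on chromosome 1 was called in all 28, with 8, 14 and 8, and 6, 9 and 12 neuron-like cut sites against 0, 1 and 4, and 7, 4 and 2 in the rest (log2 difference 3.74 ± 1.00, edgeR adjusted p = 0.00193). Olfr520 on chromosome 7 was called in 27, with 4, 24 and 18, and 4, 4 and 46 against 6, 3 and 2, and 8, 2 and 17 (2.97 ± 0.71, adjusted p = 0.000398). Its cut sites came from 38 neuron-like barcodes, second to Olfr720 among called windows. Olfr904 on chromosome 9 (3.87 ± 1.06, adjusted p = 0.00240) and Olfr1394 on chromosome 11 (3.16 ± 0.88, adjusted p = 0.00301) were also called in 27, and all 4 windows were higher in 6 of 6 libraries. Without low-signal barcodes the 4 differences were 3.59, 3.02, 3.54 and 3.13. At the other end, Olfr849 and Olfr847 on chromosome 9 were called in 7 each, with adjusted p of 0.313 and 0.113 without low-signal barcodes.

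In class I the called windows were Olfr556, Olfr78 and Olfr560. Olfr78, a receptor for short-chain fatty acids and lactate that is also expressed outside the nose, had 6, 6 and 5, and 6, 8 and 22 neuron-like cut sites against 5, 21 and 4, and 5, 0 and 6 in the rest. It was higher in 5 of 6 libraries, by a log2 difference of 2.55 ± 0.90 (edgeR adjusted p = 0.0292), and by 2.67 without low-signal barcodes (adjusted p = 0.00848). Olfr560 shares almost the whole of this window, so its 52 neuron-like cut sites are nearly the same reads. Both passed in 1 of the 6 fits that leave out a library, the one without uninjured replicate 2. Olfr556 had 12, 16 and 26, and 6, 14 and 14, against 13, 9 and 6, and 17, 10 and 19, and was higher in 6 of 6 libraries (2.10 ± 0.60, adjusted p = 0.00393). Its adjusted p was 0.0740 without uninjured replicate 3 and 0.00448 without low-signal barcodes. Olfr1351 was called as well (3.24, adjusted p = 0.0409), but its window also holds a start of Gm47343 and it passed in 1 of the 6 fits, without injured replicate 2.

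Most receptors that are well known from other work were not called. Olfr160 had 14 cut sites in neuron-like barcodes and 9 in the rest (log2 difference 3.44, edgeR adjusted p = 0.207), Olfr1507 11 and 10 (2.05, 0.439), and Olfr16 34 and 31 (1.93, 0.222). These 3 differences were above 0 without passing the test, and Olfr16 passed in DESeq2 alone of the alternatives (adjusted p = 0.0287). Olfr17 had 3 and 18, Olfr545 20 and 61, Olfr558 10 and 36, Olfr1440 6 and 26 and Olfr15 21 and 76, with log2 differences from -0.98 to 0.10 and none called. Olfr544, a receptor for azelaic acid, had none and 30 (adjusted p = 0.169). Olfr2 had none and 9, which was too few to test. None of those tested was called without low-signal barcodes either.

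The 1 lower window was Olfr536 on chromosome 7. It had 0, 2 and 3, and 8, 4 and 0 neuron-like cut sites against 6, 16 and 21, and 117, 31 and 40 in the rest. The rest was the higher in all 6 libraries, and the log2 difference was -1.68 ± 0.62 (edgeR adjusted p = 0.0388). Only 68.3% of its 31-base words are unique, and the call passed in 1 of the 6 fits that leave out a library (without injured replicate 2). It was also among the 5 windows with the highest level in the rest, with Olfr432, Olfr433, Olfr557 and Olfr156.

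Whether injury changed Olfr windows was tested in the rest and in neuron-like barcodes separately. In the rest 820 Olfr windows were tested, and edgeR called 3 higher and 0 lower after methimazole, all in class II. Over all windows 3.55% were higher and 2.88% lower. The median Olfr change was 0.32 against 0.02 over all windows, and 487 of 820 were above 0. That median was not stable: leaving out 1 library it ran from 0.11 (without uninjured replicate 3) to 0.93 (without uninjured replicate 2), and with offsets for GC content it was -0.07 against -0.12 over all windows, with 391 of 820 above 0, 3 called higher and 1 lower (2.71% and 10.7% of all). Without low-signal barcodes the same 3 were called of 652, where 3.76% of all were higher and 3.08% lower. When library sizes were set by totals, which moved the median of all windows to -0.20, 12 Olfr windows were higher and 3 lower (2.77% and 23.6% of all). Factors from 10 kb bins moved it to -0.28 and gave 12 higher and 5 lower (2.33% and 25.5% of all).

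Olfr432, at chr1:174048205-174050205, had the largest change of the 3. Its cut sites in the rest numbered 9, 2 and 12 before and 329, 78 and 64 after injury, or 0.757, 0.0807 and 0.485 against 8.47, 4.76 and 2.77 CPM. The groups did not overlap, and the log2 change was 3.99 ± 0.59 (edgeR adjusted p = 0.00186). The 3 windows were picked by this test on the same libraries, so the lack of overlap in each adds no support. A cut site was seen in 0.123% to 0.914% of barcodes in uninjured and in 4.24% to 10.8% of barcodes in injured libraries. After injury 252 of the 471 cut sites lay in the 250 bases before the start, the stretch with the TATAAA printed above. Neuron-like barcodes held 2, 10 and 6, and 16, 12 and 14.

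Olfr433 starts 8500 bases from Olfr432 and rose with it. Its cut sites in the rest were 10, 12 and 48, and 189, 82 and 63, a mean of 1.09 ± 0.76 against 4.20 ± 1.28 CPM (SD, n = 3). The groups did not overlap, and the log2 change was 2.13 ± 0.41 (edgeR adjusted p = 0.00225). Here 169 of 334 cut sites after injury lay 250 to 499 bp downstream of the start. The nearest start of a protein-coding gene outside the Olfr family is that of Ifi205, an interferon-inducible gene. It lies 8895 bp from Olfr433 and 17395 bp from Olfr432. Its window rose by 4.01 ± 0.96 (adjusted p = 0.0492), from 0, 14 and 0 to 152, 67 and 34 cut sites, and by 5.15 without low-signal barcodes (adjusted p = 0.000262).

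Olfr536 was the third. It went from 6, 16 and 21 cut sites in the rest to 117, 31 and 40, or 0.667 ± 0.173 to 2.21 ± 0.70 CPM (SD, n = 3), with no overlap between the groups. The log2 change was 1.92 ± 0.43 (edgeR adjusted p = 0.00719), and without injured replicate 1 it was 1.59 and not called (adjusted p = 0.154). Its cut sites did not gather at the start: 110 of 188 lay 251 to 500 bp upstream. The other 2 windows most open in the rest were not called, Olfr557 with a change of -0.30 and Olfr156 with 1.15 (adjusted p = 0.726 and 0.356).

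Markers of several cell types moved between the same libraries. Of 4 immune markers 1, Csf1r, rose in the rest (log2 change 1.74, edgeR adjusted p = 0.0111), and their summed level was 1.35 to 2.10 CPM in uninjured and 3.20 to 4.88 in injured libraries, with none of the 4 at 0 over a whole group in the rest. Of 5 sustentacular markers 3 fell, and their sum went from 16.7 to 28.9 down to 7.02 to 8.35. Of 5 horizontal basal markers Icam1 was lower (-0.64, edgeR adjusted p = 0.00111) and Krt14 higher (0.46, adjusted p = 0.0460). The part of these cell types in the change at Olfr432, Olfr433 and Olfr536 was not tested. Of the transduction, trafficking and choice genes Ebf1 alone was called in the rest (0.93, edgeR adjusted p = 0.00298). Among the immature neuron markers Tubb3 was higher (1.01, adjusted p = 0.00196). The 5 genes of the rule were not called, but the rule itself keeps their cut sites low in the rest, so nothing is read from that.

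**Figure D5:**
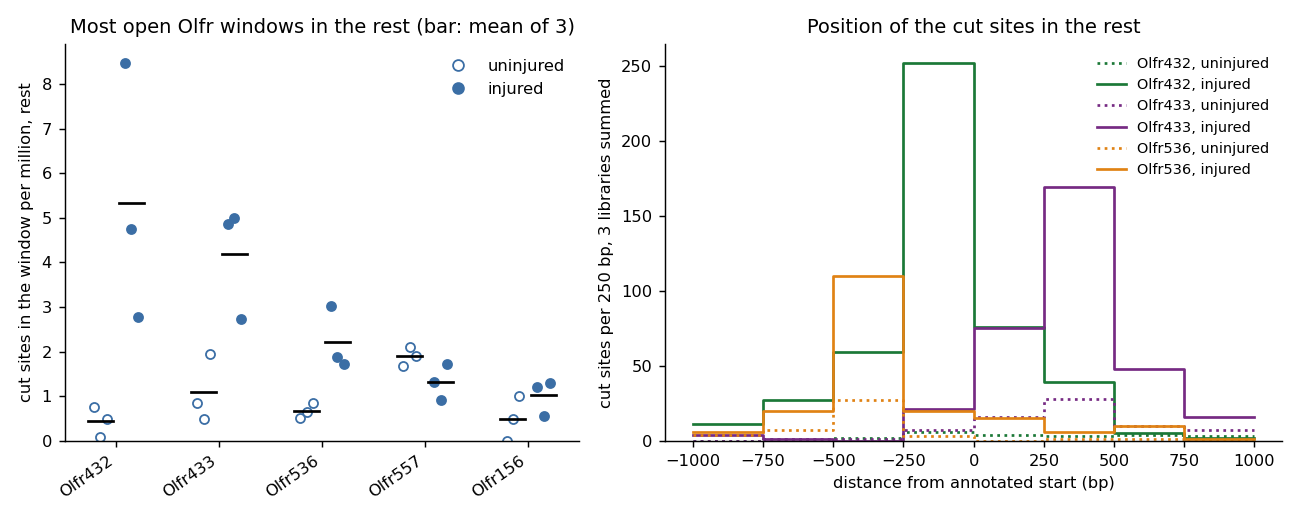
Left, levels in CPM in the rest for the 5 Olfr windows most open there, 1 point for each library and a bar at the mean of 3; the groups do not overlap for Olfr432, Olfr433 and Olfr536. Right, cut sites per 250 bp by distance from the start, summed over 3 libraries, with peaks of 252 just upstream of Olfr432, 169 downstream of Olfr433 and 110 upstream of Olfr536 after injury.

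In neuron-like barcodes no Olfr window passed the test of injury. Of 706 tested edgeR called 0 higher and 0 lower (0.0366% and 0.00523% of all windows), DESeq2 called 0, and at an unadjusted p under 0.05 there were 141 higher and 1 lower. Of these 706, 117 had no cut site in any uninjured neuron-like library and passed the filter through the injured side alone. The unadjusted counts have no share over all windows beside them, so nothing is read from them. The median change was 1.71, or 1.46 with members at 0 on 1 side set to their bound, against 0.02 over all windows. Windows other than those 117 may also have reached 10 cut sites only with the injured side. How many did was not counted, and the bound does not correct for it, so nothing is read from this median. Without injured replicate 3, edgeR called 7 of 601 higher (1.16%) and 0 lower, against 0.71% and 0.146% of all windows. Without low-signal barcodes, which held most in injured replicates 1 and 2, of 324 tested 0 were called (0.0171% and 0.0% of all), the unadjusted counts were 11 and 10, and the median was -0.23.

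The difference of the injury change between neuron-like barcodes and the rest was tested as an interaction. None of 1087 Olfr windows passed in edgeR (0.0% of all windows higher and 0.0144% lower), and DESeq2 called 0. At an unadjusted p under 0.05 edgeR had 27 higher and 4 lower, and DESeq2 33 and 5. Without low-signal barcodes none of 894 passed (0.0% and 0.0% of all), with 3 and 11 unadjusted. Nothing is read from the unadjusted counts, which have no share over all windows beside them.

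It was also asked whether cut sites gathered in 1 window within a barcode. For the shares with intervals, barcodes were pooled over the 6 libraries, and 180 of the 481 neuron-like ones came from injured replicate 3. Before any thinning 202 of 481 neuron-like barcodes (42.0%, exact 95% interval 37.5% to 46.6%) and 678 of 3995 others (17.0%, 15.8% to 18.2%) had 3 or more cut sites in a single Olfr window. Thinned to 4000 cut sites each, 1 of 481 (0.208%, 0.00526% to 1.15%) and 43 of 3995 (1.08%, 0.780% to 1.45%) did. After thinning, 5 of the 6 neuron-like libraries had no such barcode. A bound of 3 counts puts their shares at up to 1.67% to 7.69%, and the exact 95% limits lie higher. At 4000 cut sites the shares could therefore not be ordered. A cut site in any Olfr window was found in 33.9% to 46.3% of thinned neuron-like barcodes and 24.3% to 36.4% of the thinned rest when low-signal barcodes were left out. Within libraries the neuron-like share was the higher in 5 of 6, by 9.92 to 21.8 percentage points, and in injured replicate 1 it was the lower, at 33.9% against 36.2%. With all barcodes the same 5 were higher, by 7.82 to 21.3, and injured replicate 1 had 36.5% against 36.7%. The printed intervals treat pooled barcodes as independent, so they cover counting error only and leave out the spread between animals.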

How the data were processed

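Nuclei of sorted cells were profiled with 10x Genomics Chromium Single Cell ATAC in 6 libraries, 3 uninjured and 3 injured. The authors deposited, per library, fragments with a barcode and a read count, and per the submitters' processing notes used Cell Ranger 2.0.0 and build mm10. The aligner is not given in the sources used here. Fragments are already deduplicated, and the deposited count of read pairs per fragment was 2.55 to 11.2 per library and was not used as a measure.

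Both ends of each fragment were counted as cut sites, so 1 fragment within a window gives 2 cut sites that are not independent. Counts per window were summed over barcodes of 2000 or more fragments, separately for neuron-like barcodes and the rest. edgeR 4.0.16 (R 4.3.3, limma 3.58.1) with TMM factors and quasi-likelihood tests was fitted over all windows with 10 or more cut sites, and p-values were adjusted by Benjamini-Hochberg over all of them. The comparison of neuron-like barcodes with the rest had the library as a block. Injury was tested in the rest, in neuron-like barcodes and as the difference of both. DESeq2 1.42.0 was an alternative. Levels are cut sites per 1000000 in the same barcodes (CPM). The fits were also run on simulated counts, drawn independently for each window and sum. These left out the dependence of cut sites within a fragment or barcode, so they do not show how the fits behave under it. Python 3.11.15, pandas 2.3.3 and scipy 1.17.1 did the counting.

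Named windows are the 10 with the largest difference among those called higher and without another gene's start, the called window with another start, the called lower one, the 5 most open in the rest, those called after injury, and a list of studied receptors. Olfr78, Olfr556 and Olfr560 were also named as the class I calls. Olfr1404, Olfr520, Olfr904, Olfr1394, Olfr849 and Olfr847 were chosen after their values were seen, as the windows called in the most and the fewest alternatives. The members and lists were chosen with earlier results of these data known. Low-signal barcodes were set apart after seeing the data. Replicates are separate animals per the labels. Same-numbered samples deviated from their group means with correlations of 0.0827, 0.0684 and 0.215, all positive, and shared an age. The labels do not say that the numbers pair samples, and the correlations do not settle it. The main injury fits left pairing out, with the replicate number as a block in an alternative. Sequences were read from GRCm38.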

Additional observations from a re-analysis of the deposited data

How the results depend on the processing

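Against 49 Olfr windows called between neuron-like barcodes and the rest, filterByExpr left 7 windows to test and gave 3 calls, DESeq2 gave 134, a rule of 2 or more marker cut sites 25, at most 2 cut sites per barcode and window 103, and the fit with no replicate block 80. Over all windows filterByExpr called 1659 of 15053 higher and 1843 lower, and the others 10.2%, 5.69%, 11.7% and 5.84% higher and 9.58%, 8.32%, 15.9% and 7.58% lower, in that order. With the marker rule applied after thinning to 4000 cut sites (39 barcodes, with 989 of 1087 windows at 0 on the neuron-like side) there were 0, with 0.239% of all windows higher and 2.81% lower. The fitted log2 differences there, which rest on 0 neuron-like cut sites in each window but Olfr720 (2 cut sites), are no bounds and are too thin to read, were below 0 for Olfr73 (-3.47), Olfr844 (-3.94), Olfr1318 (-4.60), Olfr418 (-5.78), Olfr348 (-4.43), Olfr57 (-5.19), Olfr462 (-3.88), Olfr720 (-0.22), Olfr1351 (-5.31) and Olfr78 (-6.14). Without 1 replicate each the count ran from 19 to 55, and without low-signal barcodes it was 25 without uninjured replicate 3 (5.64% of all windows higher, 8.56% lower) and 23 without injured replicate 3 (5.32% and 9.06%). For injury in the rest, 3 calls became 15 with library totals and 17 with factors from 10 kb bins, and 11 and 24 when low-signal barcodes were also left out, with 2.79% and 2.55% of all windows higher and 25.7% and 36.9% lower. In neuron-like barcodes the count ran from 0 to 7 without 1 replicate each. The replicate block gave 3 calls in the rest (6.31% of all windows higher, 6.99% lower) and 0 in neuron-like barcodes (0.115% and 0.0314%), and the numbers were not shown to pair the samples.

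The summed neuron-like level was 179 CPM and that of the rest 206 CPM, with ratios to the flanks of 1.60 and 1.22, when the rule followed thinning. With windows of 500 bp either side, the rest had 81.2 CPM and a ratio of 1.125, and neuron-like barcodes a ratio of 2.69. Without low-signal barcodes and doublets the neuron-like ratio was 2.45. The share of neuron-like barcodes with 3 or more cut sites in 1 window was 0.0% without low-signal barcodes, and unthinned 42.0%, 34.0% without doublets and 41.3% without low-signal barcodes. In the rest it was 0.634% without low-signal barcodes, 0.526% for 4 or more cut sites, and unthinned 17.0%, 14.2% and 16.4%. Of 427 values of named windows under the alternatives 333 kept direction and side of the threshold, 84 kept direction only and the 10 named above changed sign. Where no cause is named above, the cause was not tested. The median window was cut in 4 neuron-like barcodes, which limits what single windows can show.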
